A study of Mus musculus with 6 samples.

Results

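The neurofilament genes Nefl, Nefm and Nefh were described together with Ina and Prph, whose proteins assemble with them, in mouse hippocampus after knockdown of L-DL. L-DL is the long isoform of the RNA-binding protein hnRNP DL, encoded by Hnrnpdl. All 5 genes were found by symbol among the 52550 Ensembl genes of the count table, and all 5 passed the count minimum with 17621 genes in all. They had been picked from this very comparison, so their differences between the groups are given as descriptions without p-values. RNA came from the hippocampus of male C57BL/6 J mice with a wild-type background, with 3 libraries of control mice and 3 of L-DL KD mice. All of them had received adeno-associated virus (AAV) in the CA1 areas of both hemispheres when 8 weeks old, which carried control shRNA in one group and L-DL shRNA in the other. The control virus was used at the higher titre. The L-DL shRNAs stood under H1 promoters, which are not restricted to a cell type, and the vector also carried a fluorescent marker under a neuronal CamkIIα promoter. The time from injection to RNA extraction is not given in the sources used here. In the labels the controls are wild type, and the other group is hnRNP DL KD by genotype and hnRNP DL-/- by description.

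Neurofilaments are the intermediate filaments of the axon and set its calibre. NFL (Nefl) is the subunit on which the heteropolymer is built, and NFM (Nefm) and NFH (Nefh) carry long tails that project from the filament and are heavily phosphorylated on Lys-Ser-Pro repeats. α-internexin (Ina) is the further subunit of central neurons and appears early in development, whereas peripherin (Prph) is known mainly from peripheral neurons and rises after nerve injury.

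Nefl lies on chromosome 14 of GRCm38 from 68083863 to 68089095 on the plus strand, and Nefm lies beside it from 68082590 to 68124846 on the minus strand. Nefh is on chromosome 11 from 4938754 to 4948064 (minus strand), Ina on chromosome 19 from 47014698 to 47025327 (plus strand) and Prph on chromosome 15 from 99055174 to 99058978 (plus strand). The reference transcripts of Nefl, Nefm, Nefh and Ina have 4, 3, 4 and 3 exons, and each of the 4 holds an exon of 125 nt, the second in Nefl, Nefm and Ina and the third in Nefh. Prph-201 has 9 exons, of which none is 125 nt long and the fifth has 126 nt.

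Parts of Nefl and Ina are shared with a gene on the other strand. The last exon of Nefm-202, a long transcript of Nefm, covers 1108 of the 3380 nt of Nefl-201 (chromosome 14 from 68083863 to 68084970). An exon of Nt5c2-203 covers 456 of the 3240 nt of Ina-201 (chromosome 19 from 47014698 to 47015153). Whether the authors' counting used strand, and on which gene reads of these stretches were counted, is not given in the sources used here. No base of the usual transcript Nefm-201 is shared with Nefl. Nt5c2 itself had 64.3 CPM in the controls and 64.1 CPM in the libraries labelled L-DL KD (log2 fold change -0.01, standard error 0.06, edgeR adjusted p = 0.960).

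**Figure D1:**
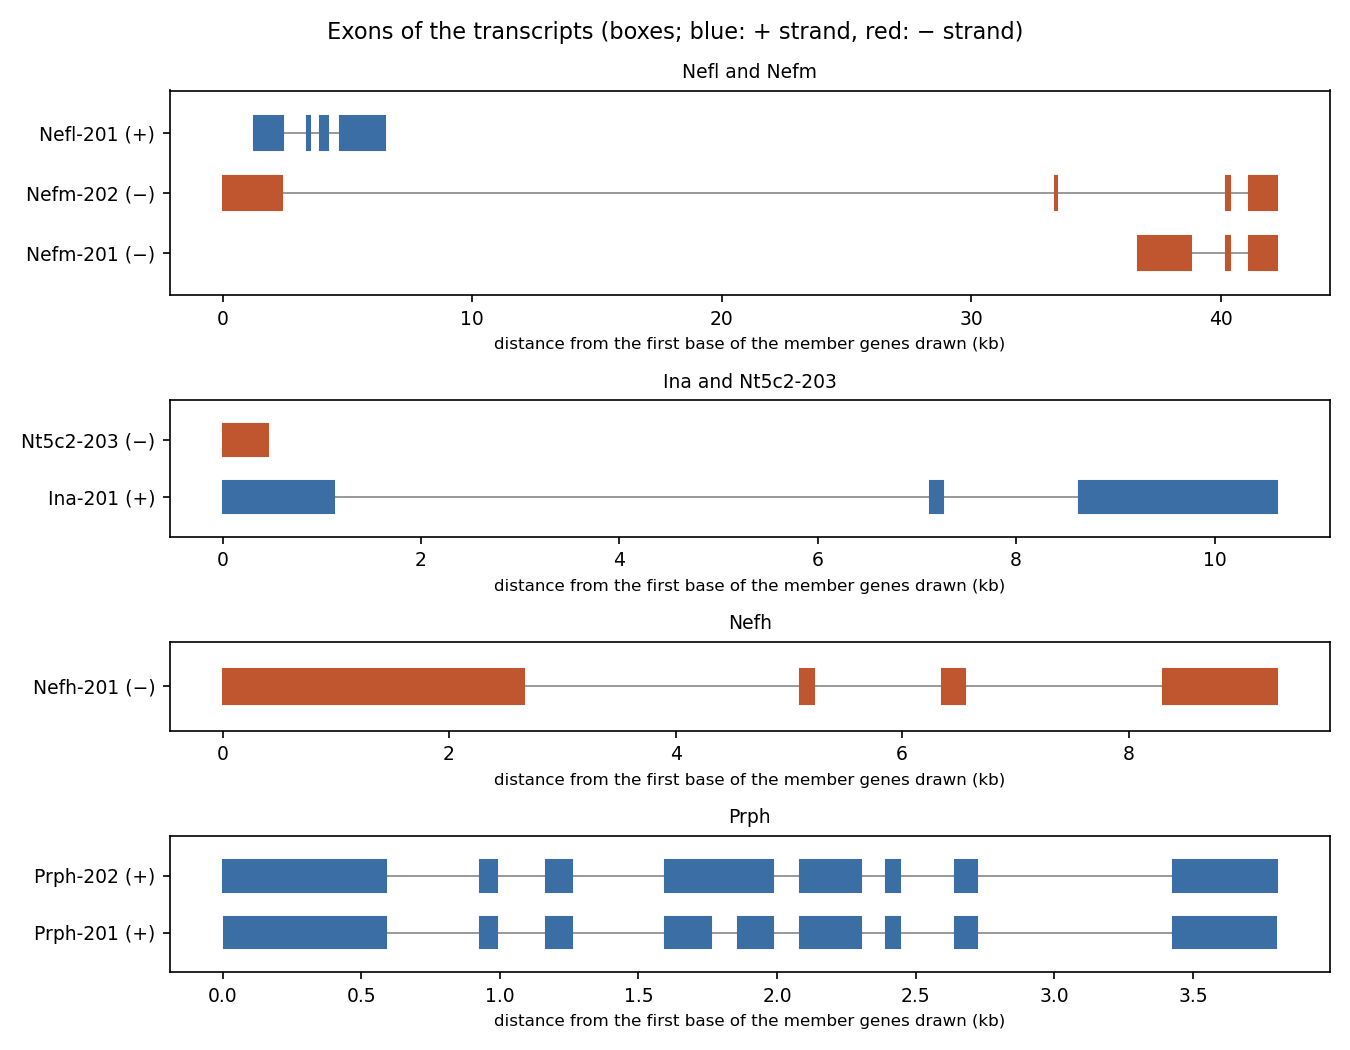
Exons (boxes) of the transcripts of the 5 genes by distance in kb along the genome, with plus-strand transcripts in blue and minus-strand transcripts in red. The last exon of Nefm-202 lies over the first exon of Nefl, the part of Nt5c2-203 that is drawn lies over the start of Ina, and Prph-202 keeps the 96 nt intron that Prph-201 removes.

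The promoter table of RefSeq (GRCm38.p6) held entries for Ina and Prph, 2 of the 5 genes. The 100 bases before each start are shown because Ina had the lowest fold change of the 5 genes and Prph a positive one that was not called, with the motif TATAAA in capitals where it was found on the strand of the gene.
Ina, chr19:47014581-47014680, plus strand: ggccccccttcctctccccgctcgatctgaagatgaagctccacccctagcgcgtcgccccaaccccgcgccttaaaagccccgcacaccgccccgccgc
Prph, chr15:99055074-99055173, plus strand: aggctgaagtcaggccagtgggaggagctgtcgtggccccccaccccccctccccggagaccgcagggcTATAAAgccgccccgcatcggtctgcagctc
TATAAA began 31 bases before the Prph start and was not found in this window of Ina on either strand. Of the 32851 promoters in the table, 3.80% held TATAAA within the same window on the strand of the gene and 5.56% on either strand. The window held 11 CG dinucleotides in Ina and 6 in Prph, against a median of 3 over all promoters.

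Library totals lay between 16052529 and 17913064 counts. Counts were scaled by depth to CPM with edgeR's TMM factors. Hnrnpdl, the gene of L-DL, had 176, 183 and 170.5 CPM in the controls and 216.7, 150.03 and 173 CPM in the libraries labelled L-DL KD (log2 fold change 0.03, standard error 0.12, edgeR adjusted p = 0.898). No fall of the targeted gene was detected at the gene level, where the long isoform is not counted apart from the rest. The paper assessed the knockdown by immunoblot of L-DL protein in injected hippocampus and describes reduced L-DL expression in these mice. Gene counts do not measure that protein, and the group is named by its label throughout. Markers of CA1, CA3 and dentate granule neurons were all detected in every group, with none of these 12 genes at 0.

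The filament genes did not move together. Nefl and Nefm were higher in the libraries labelled L-DL KD, Nefh and Ina were lower, and Prph, which was near its detection limit, was higher. In none of the 5 genes did the groups overlap, which was also so for 47.2% of all tested genes. The 3 higher genes stand beside 23.8% of all tested genes that were apart and higher, and the 2 lower genes beside 23.4% that were apart and lower. At a Benjamini-Hochberg adjusted p under 0.05 from edgeR's quasi-likelihood test 4 of the 5 were called, beside 30.5% of all tested genes. Of these, 2 were higher and 2 lower, beside 15.6% and 15.0% of all tested genes. Because the genes were chosen from this comparison, nothing is read from these counts.

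Nefl had 263, 245 and 249 CPM in control replicates 1 to 3 and 419.8, 491 and 479 CPM in L-DL KD replicates 1 to 3. The means were 253 ± 9.62 and 463 ± 38.1 CPM (SD, n = 3 each), a 1.83-fold higher level (log2 fold change 0.88, standard error 0.08). The lowest L-DL KD library lay 1.59-fold above the highest control.

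Nefm had 167, 179.6 and 179.9 CPM in the controls and 424, 642 and 589 CPM in the libraries labelled L-DL KD. Mean levels of 176 ± 7.18 and 551 ± 114 CPM (SD, n = 3 each) made it 3.14-fold higher (log2 fold change 1.65, standard error 0.14). The 3 controls were tightly grouped, with a coefficient of variation of 4.09%, against 20.6% in the other group. Of all tested genes, Nefm had the 266th highest fold change and Nefl the 1295th highest.

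Nefh had 56.7, 49.9 and 48.9 CPM in the controls and 25.0, 18.0 and 10.9 CPM in the libraries labelled L-DL KD. Mean levels were 51.8 ± 4.26 and 18.0 ± 7.01 CPM (SD, n = 3 each), 2.88-fold lower (log2 fold change -1.53, standard error 0.25). The spread among the libraries labelled L-DL KD was wide, with a coefficient of variation of 39.0%, yet the highest of them was 1.96-fold below the lowest control.

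Ina was the most clearly separated of the 5 genes. It had 199, 198 and 183 CPM in the controls and 63.8, 51.5 and 49.4 CPM in the libraries labelled L-DL KD, so that the nearest libraries of the groups were 2.87-fold apart. The means were 193 ± 8.94 and 54.9 ± 7.77 CPM (SD, n = 3 each), a 3.52-fold lower level (log2 fold change -1.81, standard error 0.11). Among the tested genes, Ina had the 105th lowest fold change and Nefh the 210th lowest.

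Prph was counted only 20, 14 and 11 times in the controls and 24, 36 and 36 times in the libraries labelled L-DL KD. This was 1.23, 0.822 and 0.697 CPM against 1.32, 2.02 and 2.14 CPM (log2 fold change 0.99, standard error 0.36), and 7.70% of the tested genes had a lower control level. The groups were apart by 1.07-fold only, so L-DL KD replicate 1 was close to control replicate 1. The log2 fold change of Prph was 1.25 without control replicate 1, and it was not called in the test over all genes.

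**Figure D2:**
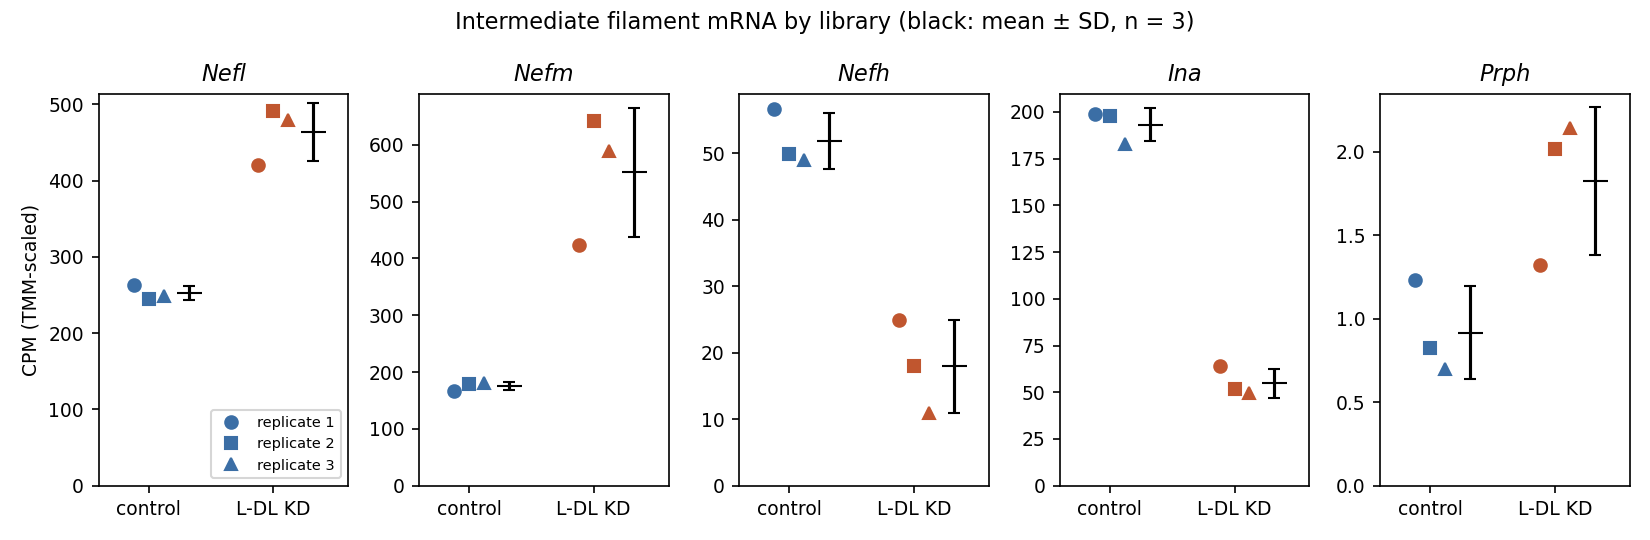
CPM of the 5 genes in each library (symbols give the replicate number) with mean and SD in black, n = 3 per group, on a separate linear axis from 0 for each gene. Nefl and Nefm lie higher and Nefh and Ina lower in all 3 libraries labelled L-DL KD, and L-DL KD replicate 1 lies nearest to the controls in all 5 panels.

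L-DL KD replicate 1 lay nearest to the control mean in all 5 genes. It was also the library with the highest Hnrnpdl level of the 6, at 216.7 CPM. Hnrnpdl was lowest in L-DL KD replicate 2, which lay furthest from the control mean in Nefl and Nefm. In Nefh, Ina and Prph that was L-DL KD replicate 3. Among the libraries labelled L-DL KD, replicate 1 also had the highest summed level of 8 pan-neuronal genes (2968 CPM) and the lowest of 6 microglial genes (1616 CPM). Whether these traits are linked was not tested. With L-DL KD replicate 1 left out, the log2 fold changes were 0.94 for Nefl, 1.81 for Nefm, -1.83 for Nefh, -1.93 for Ina and 1.18 for Prph.

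To compare the genes with each other, CPM was divided by the length of the reference transcript in kb. In the controls the order was Nefl, Ina, Nefm, Nefh and Prph, at 74.7 ± 2.85, 59.6 ± 2.76, 52.7 ± 2.15, 13.0 ± 1.07 and 0.522 ± 0.159 CPM per kb (SD, n = 3 each). No neighbours in this order overlapped between libraries. Among the libraries labelled L-DL KD, Nefm came first at 165 ± 34.1, followed by Nefl at 137 ± 11.3, Ina at 16.9 ± 2.40, Nefh at 4.502 ± 1.76 and Prph at 1.04 ± 0.252 CPM per kb (SD, n = 3 each). Here Nefm and Nefl overlapped, with 127, 192 and 177 against 124, 145 and 142 CPM per kb, while Nefm was the higher in each library. If bases shared with another gene were not counted at all, the control level of Nefl would be 111 CPM per kb and that of Ina 69.4 CPM per kb, in the same order. In the other group Nefl would then be at 204 CPM per kb and above Nefm in each library, so which of the pair was the more abundant there depends on how reads of the shared exon were counted.

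The make-up of the filament mRNA changed with these shifts. Taking Nefl, Nefm, Nefh and Ina together, per kb, their sum was 203.8, 199.9 and 196 CPM per kb in the controls and 277, 358 and 336 CPM per kb in the libraries labelled L-DL KD. Nefm made up 26.4 ± 1.52% of this sum in the controls and 50.7 ± 4.26% in the other group (SD, n = 3 each). Ina made up 29.8 ± 0.923% and 5.36 ± 1.51%, and Nefh 6.49 ± 0.419% and 1.44 ± 0.738%. The share of Nefl was 37.4 ± 0.981% and 42.5 ± 2.15%. With shared bases left out of the lengths the shares moved the same way, with Nefm at 21.4% and 41.7% and Ina at 28.2% and 5.12%.

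Ratios between pairs of these genes do not depend on library scaling. Nefm over Nefl, per kb, was 0.644, 0.742 and 0.733 in the controls and 1.02, 1.32 and 1.25 in the libraries labelled L-DL KD. Nefh over Nefl was 0.174 ± 0.00800 in the controls and 0.0336 ± 0.0156 in the other group, and Ina over Nefl was 0.798 ± 0.0377 and 0.125 ± 0.0289 (SD, n = 3 each). Ina over Nefh was the ratio in which the groups overlapped, at 4.33, 4.88 and 4.61 in the controls and 3.15, 3.52 and 5.57 in the libraries labelled L-DL KD. Nefm over Nefl, in contrast, was higher in each library labelled L-DL KD than in any control.

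**Figure D3:**
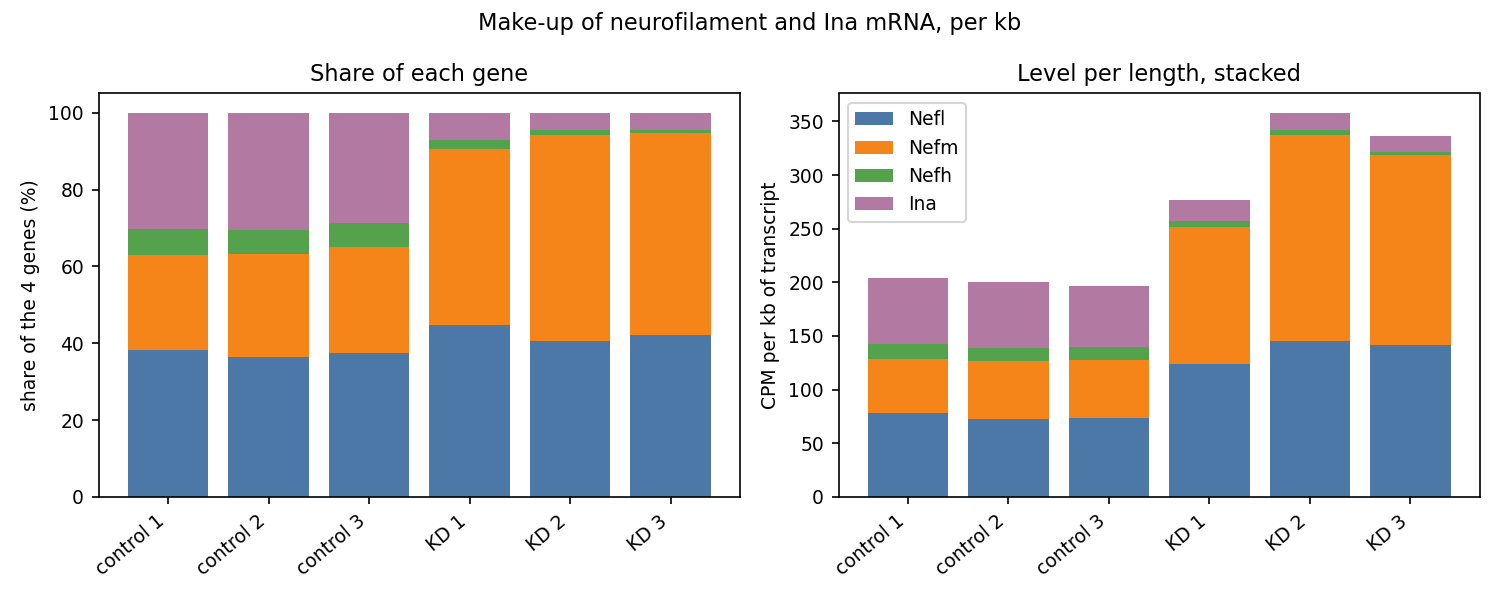
Share of Nefl, Nefm, Nefh and Ina in their sum per kb of transcript (left, %) and their stacked CPM per kb (right) in each of the 6 libraries. Nefm takes 45.8 to 53.7% and Ina 4.44 to 7.10% in the libraries labelled L-DL KD, against 24.6 to 27.5% and 28.8 to 30.5% in the controls.

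The splicing table was made with rMATS from junction reads and listed 40961 events in 10911 genes. None was listed for Nefl, Nefm, Nefh or Ina, and 1 was listed for Prph. It was retention of intron 4 of Prph, whose 96 nt are kept within the coding sequence in transcript Prph-202 and whose length is a multiple of 3. A longer form of mouse peripherin that keeps this intron in frame is known. The intron is shown with its first and last 2 bases, the splice site dinucleotides, in capitals.
Prph intron 4, chr15:99056937-99057032, plus strand: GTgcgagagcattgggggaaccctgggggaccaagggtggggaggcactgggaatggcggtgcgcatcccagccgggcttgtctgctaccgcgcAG
Its GC content was 68.8%. The table does not number the libraries within a group. Its first group was read as L-DL KD, because rMATS subtracts the second group from the first and the study defines the difference as L-DL KD minus control. The controls had 0 counts of the retained form each and 1, 3 and 2 counts of the spliced form. By the approximate rule of 3 over the number of counts, the 0 of 6 counts allow a retained share of up to 50%. At so few counts this bound is rough, and it is not adjusted for the effective lengths of the 2 forms. The libraries labelled L-DL KD had 3, 2 and 0 counts of the retained form and 2, 12 and 7 of the spliced form. With a mean of 5.33 counts per library the event was under the minimum of 20 that had been set for a comparison, and a difference in retention was not detectable at this depth.

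Of the genes around the filament genes, Nefl and Nefm are each other's neighbours, and Stc1, on the far side of Nefm at a distance of 904392 nt, is the next tested gene there. The next gene on the far side of Nefl was not looked up. Stc1 had 3.07 CPM in the controls and 2.36 CPM in the other group (log2 fold change -0.38, standard error 0.28, edgeR adjusted p = 0.341). Thoc5 and Ap1b1 beside Nefh had log2 fold changes of 0.06 and 0.08 (edgeR adjusted p = 0.640 and 0.315). Nt5c2 and Pcgf6 beside Ina had log2 fold changes of -0.01 and -0.07 (edgeR adjusted p = 0.960 and 0.661). Beside Prph, Tuba1c, an α-tubulin gene, was higher by 0.71 on the log2 scale (standard error 0.17, edgeR adjusted p = 0.0158), and Troap had a log2 fold change of 1.45 (edgeR adjusted p = 0.0700). Thus 1 of these 7 neighbours that are no filament genes was called, beside 30.5% of all tested genes.

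The genes whose profile over the 6 libraries was nearest were sought among 12715 genes with a mean of at least 5 CPM, by the root mean square difference of log2 CPM after centring each gene on its own mean. The libraries form 2 groups, so that this measure mostly reflects the size of the group difference. For Nefl the nearest were Abcg1 (0.036), Epb41l2 (0.044) and Dyrk3 (0.052). For Nefm they were Emid1 (0.10), Tmem100 (0.12) and Itga6 (0.15). Nefh was nearest to Fam19a1 (0.096), Lrrc10b (0.097) and Crhbp (0.11). Ina was nearest to Doc2b (0.073), Pou3f1 (0.099) and Panx2 (0.099), and Prph to Tmem106a (0.049), Nuak2 (0.087) and Epsti1 (0.092). Within the family, Nefl and Prph differed by 0.26, with Nefl 236th in the list of Prph, and Nefh and Ina by 0.28, with Ina 67th in the list of Nefh and Nefh 63rd in that of Ina. Nefl and Nefm differed by 0.40, with Nefl 397th in the list of Nefm and Nefm 4477th in that of Nefl.

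Genes that act with neurofilaments were taken as 5 lists of 47 genes, all of which were tested. Of these, 7 were higher and 18 were lower at an adjusted p under 0.05 (edgeR's quasi-likelihood test, adjusted over all genes), with the same background of 15.6% and 15.0%. The lists were chosen with earlier results of these data known, so the counts are no independent comparison with that background. The median log2 fold change of the 47 genes was -0.07, and that of all tested genes 0.01. Without control replicate 1 there were 7 and 11 such genes, and without control replicate 3 there were 7 and 12.

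Among 11 other intermediate filament genes, 2 were higher and none was lower, with a median log2 fold change of 0.25. Vim, the vimentin of astrocytes, microglia and vessel cells, had 430, 426 and 352 CPM in the controls and 699, 730.5 and 702 CPM in the libraries labelled L-DL KD. It was 1.76-fold higher (standard error 0.09 on the log2 scale, edgeR adjusted p = 0.000583). Lmna, which encodes lamins A and C of the nuclear lamina, was 2.26-fold higher, at 38.4 ± 2.12 against 86.6 ± 7.50 CPM (SD, n = 3 each, edgeR adjusted p = 0.000159). Gfap, the astrocyte filament and the most abundant of the list, had 2656 ± 219 and 2352 ± 246 CPM (SD, n = 3 each), with overlapping groups (edgeR adjusted p = 0.228). Nes, Synm, Sync, Des, Iffo1, Iffo2, Lmnb1 and Lmnb2 were also not called, with log2 fold changes from -0.05 to 0.42.

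Of the 8 axonal motor genes, 6 were lower and none was higher, with a median log2 fold change of -0.47, beside -0.56 for 8 pan-neuronal genes. Of these 6 calls, 5 were kept under all alternatives. Kif5a, the kinesin heavy chain known to carry neurofilaments, had 2413, 2326 and 2399 CPM in the controls and 1403, 1314 and 1141 CPM in the libraries labelled L-DL KD, 1.85-fold lower (edgeR adjusted p = 0.000422). Klc2, a kinesin light chain, was 1.69-fold lower, and Kif5c, the other neuronal kinesin heavy chain, 1.48-fold lower. Dync1i1, an intermediate chain of dynein, was 1.45-fold lower and Dctn1, its dynactin partner, 1.31-fold lower (edgeR adjusted p from 0.000961 to 0.00831 for these 4). Kif5b was 1.17-fold lower (edgeR adjusted p = 0.0403), a call kept in only 3 of 11 alternatives. It was lost with a replicate block (edgeR adjusted p = 0.0515), with library size scaling, with no low-count filter, without any single control and without L-DL KD replicate 1 or 2 (edgeR adjusted p from 0.0682 to 0.122). Klc1 and Dync1h1 had log2 fold changes of -0.02 and 0.07.

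Of the 12 kinases and phosphatases of neurofilament tails, with their partners, 10 were lower and 1 was higher. The median log2 fold change was -0.32, beside -0.56 for 8 pan-neuronal genes. Cdk5, which phosphorylates the Lys-Ser-Pro repeats, was 1.23-fold lower (edgeR adjusted p = 0.0142). Its activators p35 (Cdk5r1) and p39 (Cdk5r2) were 1.23-fold and 1.81-fold lower (edgeR adjusted p = 0.0179 and 0.0132). Cdk5 was not called without control replicate 1 or 3, Cdk5r1 without control replicate 1 or 2 or L-DL KD replicate 2, and Cdk5r2 without control replicate 1 or L-DL KD replicate 2 (edgeR adjusted p from 0.0508 to 0.0708). Gsk3a and Gsk3b were 1.54-fold and 1.26-fold lower, and the stress kinases Mapk9 and Mapk10 were 1.47-fold and 1.58-fold lower. Mapk3 (ERK1) was higher, from 122 ± 5.70 to 184 ± 9.54 CPM (SD, n = 3 each, 1.501-fold, edgeR adjusted p = 0.000864). Of the phosphatase 2A subunits, Ppp2r2b was 1.27-fold lower, and Ppp2ca and Ppp2cb were 1.15-fold and 1.19-fold lower. The calls of Ppp2ca and Ppp2cb were kept in only 3 of 11 alternatives. They were lost with a replicate block (edgeR adjusted p = 0.0818 and 0.076), with library size scaling, with no low-count filter, without any single control and without L-DL KD replicate 2 or 3 (edgeR adjusted p from 0.0673 to 0.149). The kinase Mapk8 was not called, and 6 of the 11 calls of this list were kept under all alternatives.

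The 8 genes of turnover and mRNA regulation had 3 genes higher and 1 lower, with a median log2 fold change of 0.21. Hspb1, a small heat shock protein known as a chaperone of neurofilaments, had 30.2, 37.2 and 35.6 CPM in the controls and 147, 159.8 and 173 CPM in the libraries labelled L-DL KD. This was 4.66-fold higher (standard error 0.10 on the log2 scale, edgeR adjusted p = 6.45e-05). Capn1 and Capn2, calpains that cleave neurofilaments, were 1.39-fold and 1.44-fold higher (edgeR adjusted p = 0.00863 and 0.0108). Trim2, a ubiquitin ligase of NFL, was 1.22-fold lower (edgeR adjusted p = 0.0131, and 0.0556 without control replicate 3). Tardbp and Arhgef28, whose proteins bind Nefl mRNA, were not called, with log2 fold changes of 0.13 and -0.11. Cast and Stub1 were not called either.

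Among 8 genes that link filaments to other cytoskeleton, 1 was higher and 1 lower, with a median log2 fold change of -0.08. Dst, the linker dystonin, was 1.53-fold higher (edgeR adjusted p = 0.00359). The dendritic Map2 was 1.28-fold lower (edgeR adjusted p = 0.0221) and was not called when any control was left out (edgeR adjusted p from 0.059 to 0.0855). Macf1, Plec, Myo5a, Mapt, Map1b and Sptan1 were not called, with log2 fold changes from -0.11 to 0.21.

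**Figure D4:**
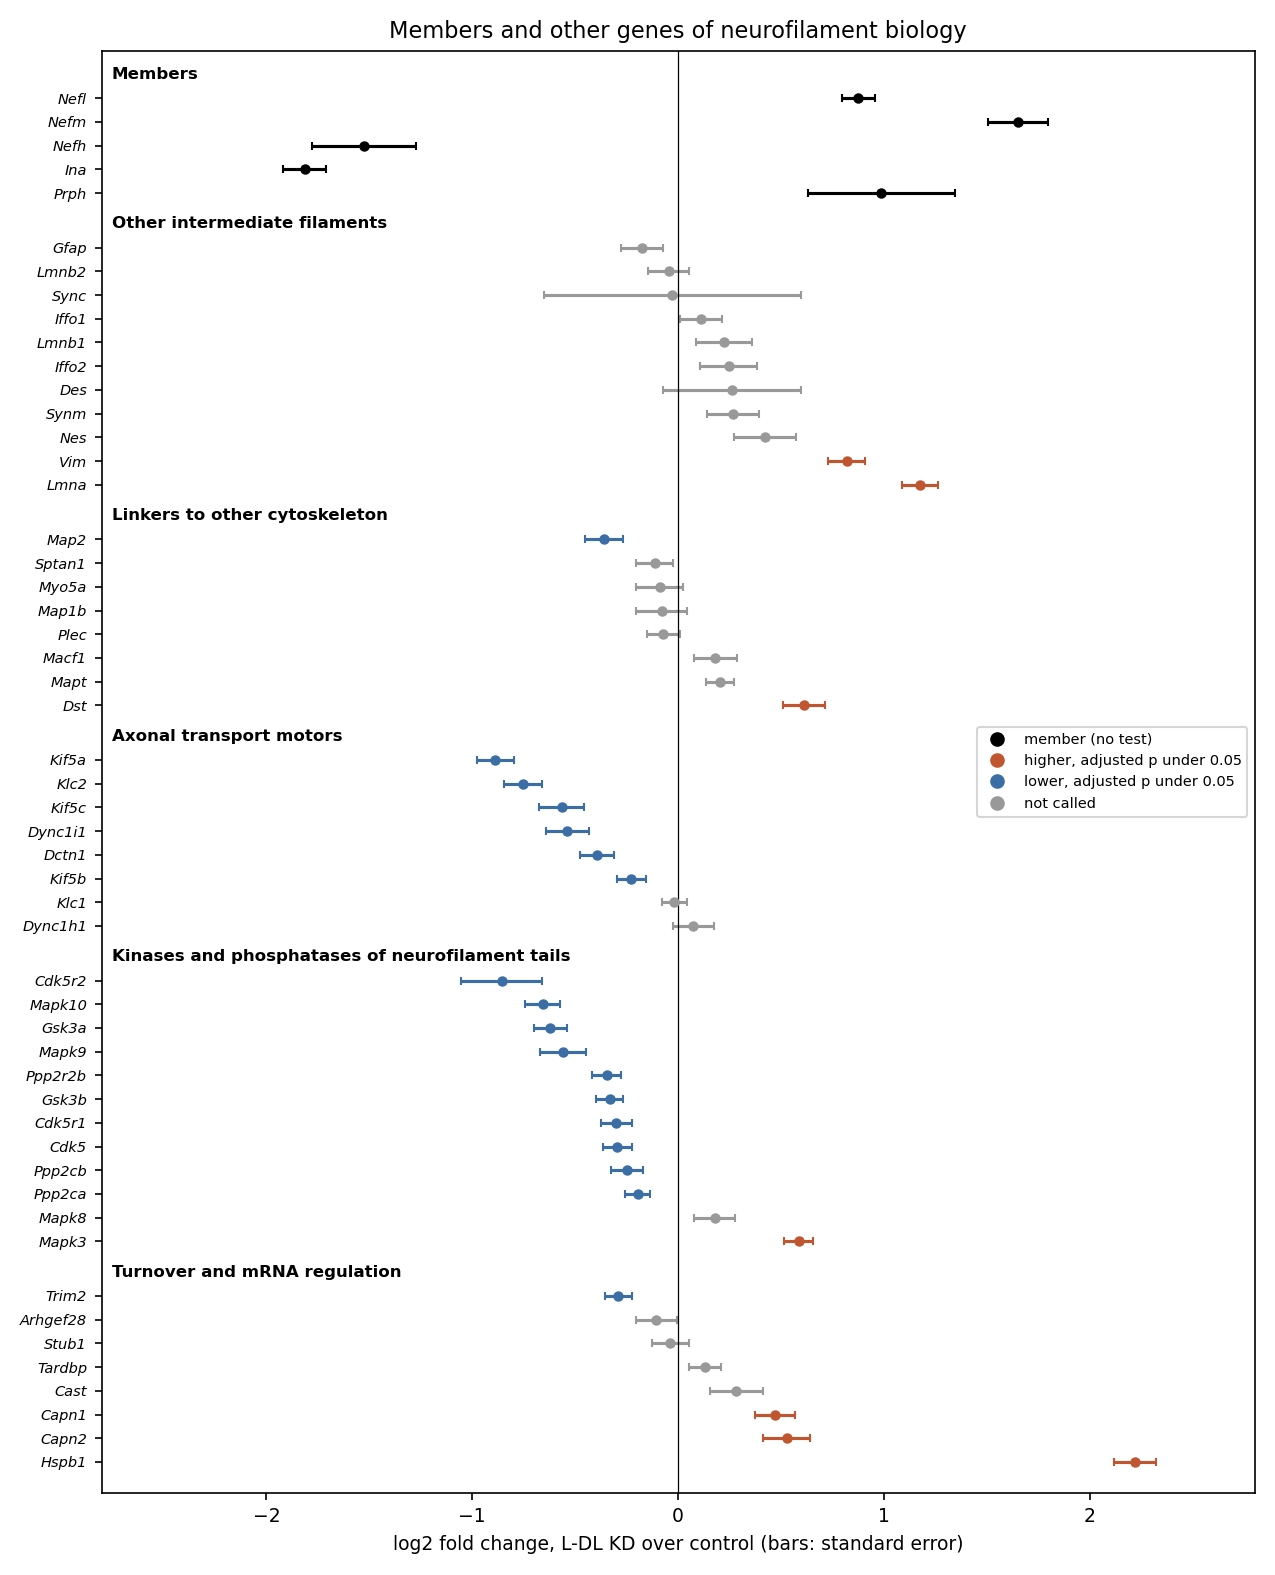
Log2 fold change, L-DL KD over control, with standard error for the 5 genes (black, test result not shown) and the 47 genes of the 5 lists. Genes of the lists are in red where higher and blue where lower at an adjusted p under 0.05 (edgeR). Ina and Nefh lie further to the left than any gene of the lists, and Nefm is exceeded on the right by Hspb1 only.

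Markers of several cell types moved between the groups as well. In bulk tissue, fewer cells of a type and less RNA per cell cannot be told apart. Of 8 pan-neuronal genes 6 were lower, with a median log2 fold change of -0.56 and a summed level of 4066 to 4306 CPM in the controls and 2261 to 2968 CPM in the libraries labelled L-DL KD. Rbfox3, the gene of NeuN, was 2.55-fold lower, at 249.6 ± 5.60 and 97.8 ± 12.5 CPM (SD, n = 3 each, edgeR adjusted p = 0.000135). Set against the mean log2 CPM of this list, the log2 fold changes were 1.47 for Nefl, 2.23 for Nefm, -1.002 for Nefh, -1.22 for Ina and 1.58 for Prph, so that Nefh and Ina were lower and Nefl, Nefm and Prph higher on this scale too.

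Nefh is known to be abundant in parvalbumin interneurons. Of 8 GABAergic interneuron genes 7 were lower, with a summed level of 705 to 771 CPM in the controls and 293 to 467 CPM in the libraries labelled L-DL KD. Pvalb itself had 18.5, 17.4 and 18.1 CPM in the controls and 27.7, 19.5 and 18.4 CPM in the other group, with overlapping groups, while Syt2 was 3.41-fold lower (edgeR adjusted p = 0.000205). CA1 pyramidal genes were lower in 3 of 4 cases, with 357 to 436 and 218 to 291 CPM in sum. CA3 pyramidal genes were lower in 2 of 4 cases, with 356 to 393 and 239 to 330.4 CPM, and dentate granule genes in 1 of 4, with 375 to 412 and 361 to 379 CPM. Of the calls in these 5 neuronal lists, those of Eno2, Stmn2, Gad2, Slc32a1, Tac1 and Wfs1 were each lost without at least 1 library (edgeR adjusted p from 0.0501 to 0.103), and that of Tac1 also with a replicate block (edgeR adjusted p = 0.0587). No gene of these lists was at 0, and their part in the changes of the filament genes was not tested.

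Of the lists for adjoining tissue and other cells, 6 of 6 microglial genes were higher, at 733 to 934 CPM in sum in the controls and 1616 to 1983 CPM in the libraries labelled L-DL KD. Endothelial genes were higher in 2 of 3 cases (159 to 171 and 198 to 238 CPM). Of the cortex and thalamus list 1 of 8 was higher and 2 were lower (225 to 257 and 213 to 243 CPM), and of the subiculum list 1 of 4 was higher and 1 lower (132 to 146 and 216 to 313 CPM). The higher sum of the subiculum list came from Fn1 (122 and 266 CPM on average), and the median log2 fold change of its genes was -0.36. Oligodendrocyte genes were higher in 1 of 6 cases (7552 to 8069 and 6529 to 9542 CPM), and astrocyte genes higher in 1 and lower in 2 of 4 (1541 to 1570.5 and 1341 to 1545 CPM). Choroid plexus genes differed most between single libraries, with 1634, 408 and 4456 CPM in the controls and 4987, 107 and 26.0 CPM in the libraries labelled L-DL KD, and none of the 3 was called. The calls of Rorb, Nts and Tmem119 were each lost without at least 1 library (edgeR adjusted p from 0.0504 to 0.10005), and that of Nts also with a replicate block (edgeR adjusted p = 0.0523). Again no gene was at 0, and the part of these cells in the changes of the filament genes was not tested.

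**Figure D5:**
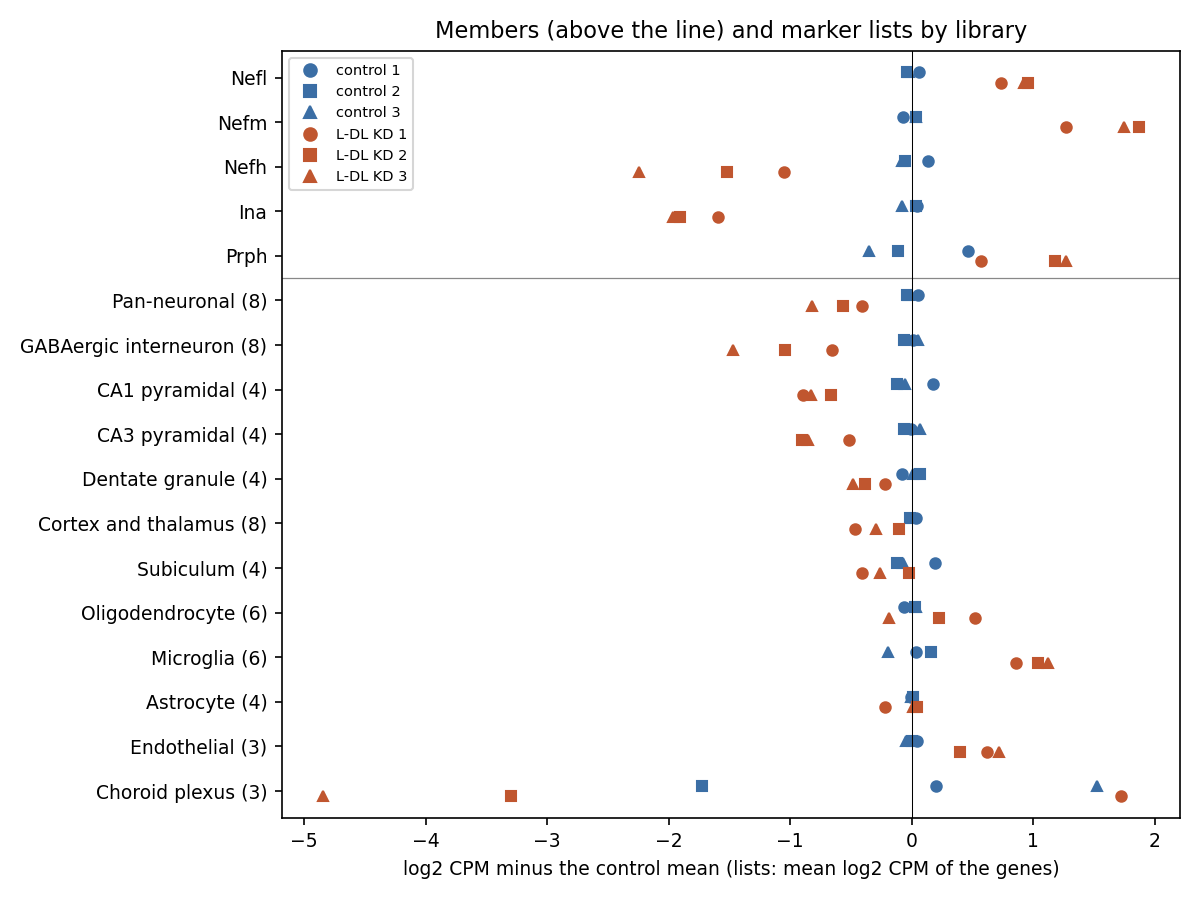
Log2 CPM minus the control mean in each library for the 5 genes (above the line) and for the mean log2 CPM of each marker list (number of genes in brackets), with controls in blue, libraries labelled L-DL KD in red and the replicate number by symbol. Nefh and Ina lie on the side of the neuronal lists, Nefl, Nefm and Prph on the other side, and the choroid plexus list is spread over both groups.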

How the data were processed

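The authors deposited raw counts per Ensembl gene from 150 nt read pairs of oligo(dT)-selected mouse hippocampal RNA, aligned to GRCm38. The submitters' processing notes list HISAT2 (version 2.1.0), HTSeq (version 0.6.1) and Bowtie (version 1.1.2) without a role, and a strand setting is not given in the sources used here. The authors also deposited rMATS junction counts and effective lengths for each event. Its columns of PSI, p-value, FDR and PSI difference hold the authors' own comparisons and were not used.

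A gene was tested if 3 or more libraries held 10 or more counts of it. The test was the quasi-likelihood test of edgeR (version 4.0.16, in R version 4.3.3) on TMM-scaled counts, with p-values adjusted by Benjamini-Hochberg over all genes and a threshold of 0.05. Standard errors follow from the F statistic. Summaries were made in Python (version 3.11.15) with pandas (version 2.3.3). Symbols, positions and transcript lengths were taken from GENCODE M21 (GRCm38), in which 52403 of 52550 identifiers had a symbol.

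The 5 genes and all lists were chosen with earlier results of these data known. Of the lists of genes that act with neurofilaments, 3 genes are not reported here and were left out of all counts, though not of the test over all genes. All 5 genes are named. The rule for the lists of genes that act with neurofilaments was to name genes that were called or among the 4 most abundant of a list. Called genes of these lists are given with values, and several of the others, abundant ones included, only in passing. For the marker lists, counts and summed levels are given, and many called markers are not named. Nearest genes were sought for genes with a mean of at least 10 counts. The labels do not tie libraries to separate animals, and p-values measure the spread between these samples, which may be technical. Alternatives were library size scaling, DESeq2 (version 1.42.0), other count minimums, a replicate block, leaving out each library, and the pan-neuronal genes as reference.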

Additional observations from a re-analysis of the deposited data

How the results depend on the processing

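The log2 fold changes of the 5 genes kept their direction under every alternative tried and moved by more than the spread between libraries only relative to the pan-neuronal list, to 1.47 for Nefl, 2.23 for Nefm, -1.002 for Nefh, -1.22 for Ina and 1.58 for Prph. With single libraries left out they ranged from 0.83 to 0.94 for Nefl, 1.53 to 1.81 for Nefm, -1.83 to -1.27 for Nefh, -1.93 to -1.74 for Ina and 0.82 to 1.25 for Prph. At the minimum of 50 counts Prph was not tested. The number of genes called was 5379 of 17621 and ranged from 3498 to 6477 with a library left out, with 3524, 3541 and 3498 without control replicate 1, 2 and 3 and 6477 without L-DL KD replicate 1. The cause was not tested. Scaling by library size called 5447 genes, of which 56.1% were higher against 51.0%, DESeq2 5525, no low-count filter 5265 and the minimum of 50 counts 5285. The number of pathway genes called was 25 of 47, and 18 to 27 with a library left out.

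Replicate numbers were not found to pair the samples. The deviations of same-numbered libraries from their group means correlated at 0.045, 0.11 and -0.092 across genes, and control replicate 3 correlated best with L-DL KD replicate 1 (0.11). With the replicate block, 4634 genes and 22 pathway genes were called, the calls of Kif5b, Ppp2ca, Ppp2cb, Tac1 and Nts were lost among the called genes of the lists, and the log2 fold changes of Nefl, Nefm, Nefh, Ina and Prph were 0.87, 1.63, -1.59, -1.82 and 0.99. No PSI comparison was rerun, since no event of these genes reached 20 or 10 counts per library. The level per kb without shared bases was an alternative chosen after seeing the data. At 11 to 36 counts per library, depth limits Prph most.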
